A study of Homo sapiens with 30 samples.

Results

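Samul-tang is a Korean herbal formula, and the comparison described here is that of its ethanol extract at 500 µg/mL with vehicle in A549 cells, a human lung adenocarcinoma line. It rests on 5 of the 30 libraries analysed. They are replicates 2 and 3 of the high dose of Samul-tang and replicates 1, 2 and 3 of vehicle. All 30 libraries come from A549 cells collected after 24 h, and the other 25 hold Samul-tang at 20 and 100 µg/mL (2 libraries each) and the formulas Palmul-tang, Sibjeondaebo-tang and Sagunja-tang. The labels give the vehicle as 0.1% DMSO, whereas the text of the series gives 2%, and the counts do not settle which is right. The labels do not say that replicates were separate cultures, so the spread behind each p-value is that between libraries and may be technical.

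Samul-tang is known as a decoction of rehmannia root, angelica root, cnidium rhizome and peony root. The aryl hydrocarbon receptor (AhR) is a ligand-activated transcription factor that many plant aromatic compounds bind, and it induces cytochrome P450 enzymes of family 1. The transcription factor NRF2 drives antioxidant and glutathione genes and is constitutively active in A549 cells, which carry a mutation in its inhibitor KEAP1. Hypoxia-inducible factor (HIF) drives glycolytic genes, and NF-kB drives chemokines and other inflammatory genes.

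Against vehicle, 5163 of 17701 genes tested passed an adjusted p of 0.05 (29.2%), of which 2701 were higher (15.3%) and 2462 lower (13.9%) in cells given the high dose. The test was edgeR's quasi-likelihood test on the authors' expected counts, with 1 estimate of spread per gene over all 30 libraries. The differences were small. The median absolute log2 change of the genes that passed was 0.28, and at least a 2-fold change was seen for 54 higher and 127 lower genes. Totals were 33666990 and 31277340 counts in the high-dose libraries, against 30217580, 29854831 and 23986637 in the vehicle libraries. Mitochondrial genes took 19.6% of counts in both high-dose libraries, against 18.6%, 15.9% and 15.2% in vehicle. Without high-dose replicate 3 the count of genes was 2786.

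The low dose, 20 µg/mL, gave 5431 genes past the threshold against the same vehicle libraries (30.7%), and the medium dose, 100 µg/mL, gave 4251 (24.0%). Without low-dose replicate 3 the low dose gave 2419, and without medium-dose replicate 2 or 3 the medium dose gave 2484 or 2375. Between the high and the low dose 238 genes passed (1.34%), 107 higher and 131 lower at the high dose, and 2456 genes had an unadjusted p under 0.05. The number past the threshold was 58 without high-dose replicate 2, 108 without high-dose replicate 3, 149 without low-dose replicate 2 and 48 without low-dose replicate 3. The 3 comparisons with vehicle share the vehicle libraries, and their values are therefore given side by side only.

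**Figure D1:**
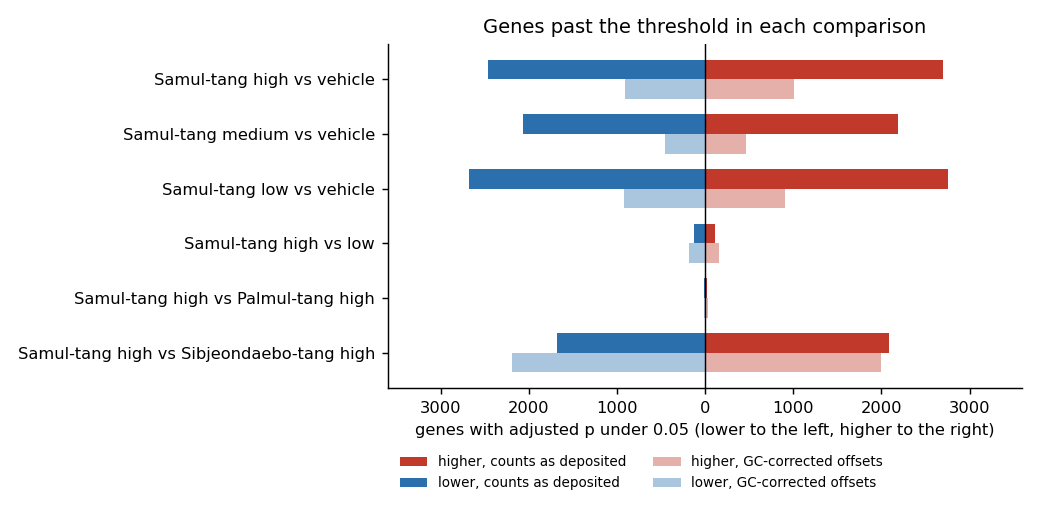
Number of genes with an adjusted p under 0.05 in each comparison, higher to the right and lower to the left of 0. Solid bars use the counts as deposited and pale bars use offsets corrected for transcript GC content. The comparison of the high dose with vehicle has 2701 higher and 2462 lower genes on the counts as deposited, against 1004 and 903 with the correction.

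The differences from vehicle followed the GC content of the transcripts. Genes were split by GC content into 5 groups of equal size. In the group with the lowest GC content (26.7% to 41.1%) the median log2 difference between the high dose and vehicle was 0.19, with 1406 genes higher and 31 lower. In the group with the highest GC content (58.1% to 75.2%) it was -0.24, with 22 genes higher and 1351 lower. The low dose gave 0.22 and -0.27 in the same groups, whereas the high dose against the low dose gave -0.02 and 0.03. Relative to the mean of all 30 libraries, genes of the highest group had a median of 0.02 and -0.02 in the high-dose libraries and of 0.28, 0.22 and 0.18 in the vehicle libraries. The 27 libraries of cells given an extract lay between -0.10 and 0.05, and no extract library overlapped the vehicle libraries. The titles of all 30 libraries carry the same batch name, BatchE, while the library codes of the Samul-tang groups and of vehicle start with different prefixes, whose meaning is not given in the sources used here. Any handling that followed these prefixes cannot be told apart from the difference between extract and vehicle. The codes of Palmul-tang and Sibjeondaebo-tang start with yet another prefix, so the same limit holds for the differences between Samul-tang and these formulas.

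A fit with offsets that remove the trend with GC content within each library, chosen after seeing the data, called 1907 of 17570 genes (10.9%), 1004 higher and 903 lower. Of the 5148 genes called on the counts as deposited that could be tested again, 1352 were called with the same sign. Between the high and the low dose the same correction raised the count to 344 (1.96%), of which 232 were also among the 238 called on the counts as deposited. Values from this fit are given below as GC-corrected. Of the 158 genes named by rule, 98 were called in this fit too, and not every named gene is given with its GC-corrected value. Genes were named by a rule on size, level and non-overlapping libraries or, for list members, by adjusted p against vehicle alone. Lack of overlap is part of the choice of the former, and passing against vehicle is part of the choice of both. Of the 17701 genes tested, 7026 had a symbol, a mean log2 CPM of at least 2 and no overlap, whether they passed or not. Leaving out each of the 5 libraries in turn ended the call of a named gene against vehicle only where a library is named.

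**Figure D2:**
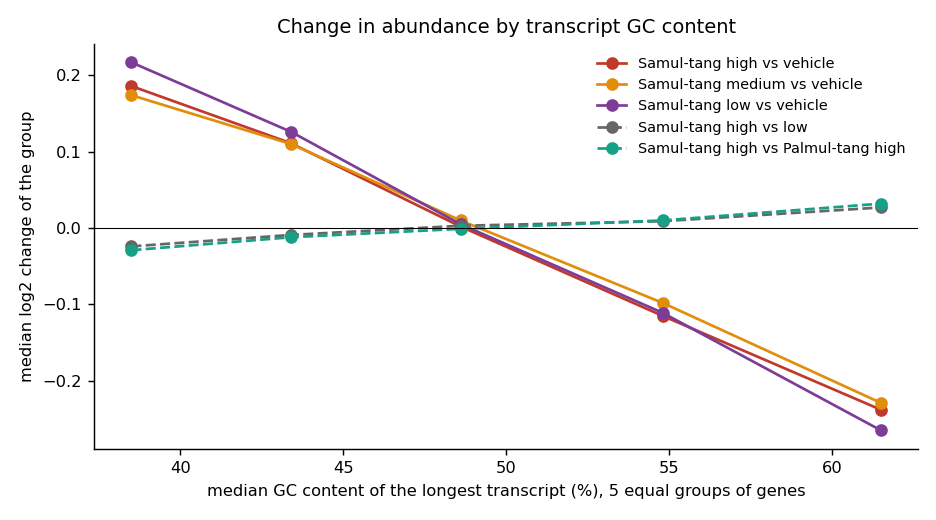
Median log2 difference of 5 equal groups of genes (vertical axis) against the median GC content of their longest transcript in percent (horizontal axis). Solid lines are the Samul-tang doses against vehicle and dashed lines are the high dose against the low dose and against Palmul-tang high. The high dose against vehicle falls from 0.19 at the lowest GC content to -0.24 at the highest, and the dashed lines stay within 0.03 of 0.

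The cells carried the marks of A549. The 12 identity genes, among them keratins KRT8 and KRT18 and the aldehyde dehydrogenase ALDH1A1, were all tested and summed to 21870 and 21260 CPM (counts scaled to an equal total per library) in the high-dose libraries, against 22120, 23020 and 22290 in vehicle. CDKN2A, which is deleted in A549, was at 0 in all 5 libraries. Of 10 markers of the alveolar type 2 cell 5 stayed under 1 CPM, and the sum was 37.1 and 37.8 CPM at the high dose, against 37.1 to 38.6 CPM in vehicle. Of 10 immune markers 7 stayed under 1 CPM in all 5 libraries, and their sum was 26.5 and 25.3 CPM at the high dose, against 26.8 to 31.3 CPM in vehicle. Of 11 fibroblast and endothelial markers 6 stayed under 1 CPM, and their sum was 33.7 and 35.9 CPM, against 34.2 to 35.9 CPM. No member of the immune and the fibroblast and endothelial lists passed the test. In bulk RNA, fewer cells of a type and less RNA per cell cannot be told apart.

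Of 11 tested AhR target genes 6 were higher and none lower at the high dose than in vehicle, with a median log2 difference of 0.36, against -0.01 over all genes tested. With GC-corrected offsets 9 were higher and none lower. The share of all genes that passed was 29.2% on the counts as deposited and 10.9% when GC-corrected. CYP1B1 (chr2:38066973-38109902, minus strand), a family 1 cytochrome P450 that oxidises steroids and aromatic hydrocarbons, had 182 and 181 CPM at the high dose, against 112, 116 and 113 CPM in vehicle. Both high-dose libraries lay above all vehicle libraries by about the same step, and the log2 difference was 0.67 ± 0.04 (SE, adjusted p = 1.02e-12). CYP1B1 had 117 and 126 CPM at the low dose and 122 and 123 CPM at the medium dose. The high dose exceeded the low dose by 0.58 (adjusted p = 5.56e-10), and the GC-corrected difference from vehicle was 0.57. Its exons overlap RMDN2-AS1 on the same strand, and reads of the pair may be shared.

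CYP1A1 (chr15:74719542-74725610, minus strand), the classical AhR-induced enzyme, was the most strongly changed member although its level was low. It had 2.04 and 1.53 CPM at the high dose, against 0.342, 0.534 and 0.245 CPM in vehicle. Both high-dose libraries lay above all vehicle libraries, and the log2 difference was 2.22 ± 0.30 (SE, adjusted p = 2.32e-06). The low dose gave 0.279 and 0.0906 CPM and the medium dose 0.323 and 0.400 CPM. The RefSeq promoter of CYP1A1 (GRCh38.p14, chr15:74725479-74725778, minus strand, from 250 bases before to 50 after the gene's start) is shown because it holds the core of the element that AhR binds. Capitals mark 1 match to GCGTG on either strand, which 36.5% of 35116 promoters of this length hold.
CYP1A1: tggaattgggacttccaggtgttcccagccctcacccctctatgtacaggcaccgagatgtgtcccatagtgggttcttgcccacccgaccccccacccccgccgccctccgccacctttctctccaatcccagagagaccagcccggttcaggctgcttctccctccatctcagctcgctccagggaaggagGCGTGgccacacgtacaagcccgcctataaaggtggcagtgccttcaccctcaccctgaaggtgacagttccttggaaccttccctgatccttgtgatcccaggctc

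ALDH3A1, an aldehyde dehydrogenase that is abundant in A549, had 1464 and 1426 CPM at the high dose, against 1172, 1134 and 1060 CPM in vehicle, a log2 difference of 0.36 ± 0.05 (SE, adjusted p = 2.44e-06). Its level at the low dose, 1025 and 974 CPM, was below vehicle, with a log2 difference of -0.17 (adjusted p = 0.0101). TIPARP, a mono-ADP-ribosyltransferase that feeds back on AhR, had 33.3 and 35.1 CPM at the high dose, against 25.1, 25.3 and 27.6 CPM, a difference of 0.40. The quinone reductase NQO1 and the hormone STC2 also rose, by 0.26 and 0.20 on the log2 scale. STC2 lost its call without high-dose replicate 2, high-dose replicate 3 or vehicle replicate 3. AHRR, the AhR repressor, differed by 0.43 with an adjusted p of 0.0653, and CYP2S1 by 0.32 (adjusted p = 0.0561). CYP1A2 was at 0 CPM in all 5 libraries.

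**Figure D3:**
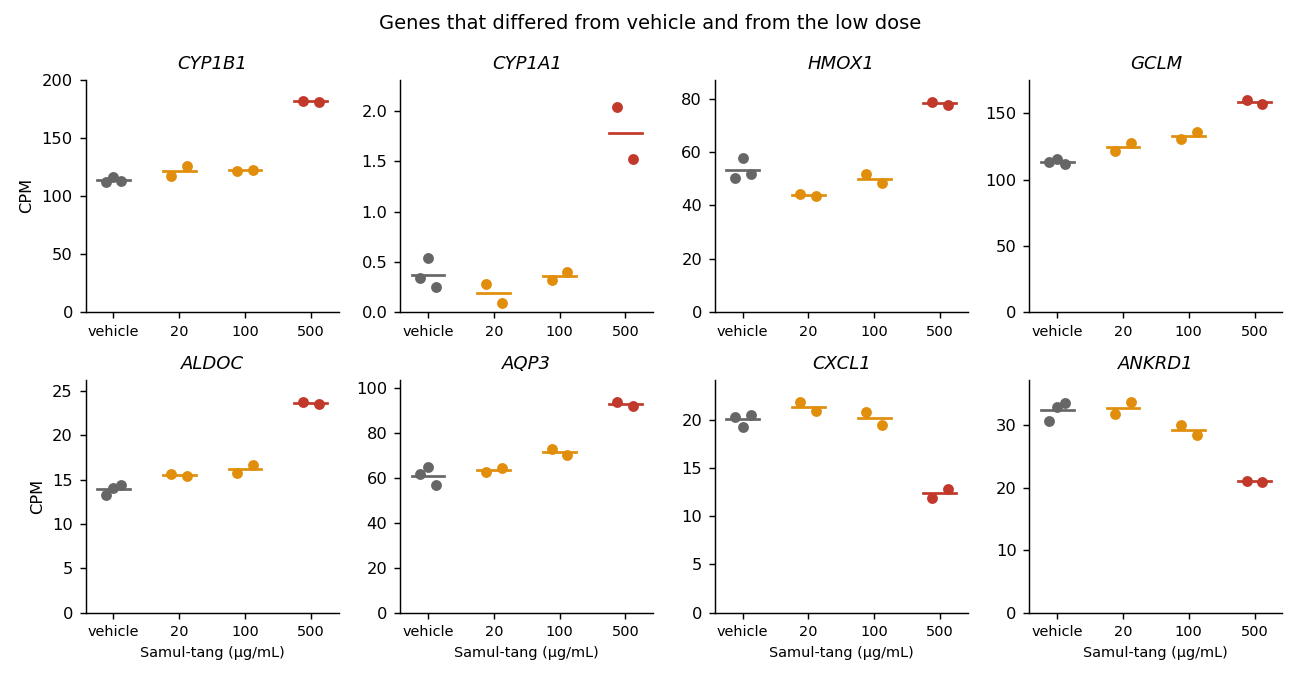
CPM (vertical axes, each from 0) of 8 genes in vehicle and at 20, 100 and 500 µg/mL of Samul-tang, with 1 point per library and a line at the group mean. CYP1B1, CYP1A1, HMOX1, GCLM, ALDOC and AQP3 are higher and CXCL1 and ANKRD1 lower at 500 µg/mL than in vehicle and at 20 µg/mL.

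Of 25 tested NRF2 target genes 13 were higher and 1 lower at the high dose, with a median log2 difference of 0.16. With GC-corrected offsets 13 were higher and none lower. Of all genes 29.2% passed on the counts as deposited and 10.9% when GC-corrected. Against the low dose 9 were higher and none lower, where 1.34% of all genes passed. Of these 9, GCLC lost the call without any 1 of the 4 libraries, and FTH1 without high-dose replicate 2 or low-dose replicate 3. HMOX1 (chr22:35380361-35394214, plus strand), heme oxygenase 1, which cleaves heme to biliverdin, iron and carbon monoxide, had 78.9 and 77.5 CPM at the high dose, against 50.2, 57.6 and 51.7 CPM in vehicle. Both high-dose libraries were above all vehicle libraries, and the log2 difference was 0.56 ± 0.06 (SE, adjusted p = 4.19e-08). HMOX1 was lower at the low dose than in vehicle, at 44.3 and 43.4 CPM, with a log2 difference of -0.28 (adjusted p = 0.000638). The high dose exceeded the low dose by 0.84 (adjusted p = 5.11e-10).

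GCLM, the regulatory subunit of the enzyme that starts glutathione synthesis, had 160.1 and 157 CPM at the high dose, against 113, 116 and 112 CPM in vehicle, a log2 difference of 0.48 ± 0.05 (SE, adjusted p = 1.59e-08). The catalytic subunit GCLC differed by 0.28. The cystine importer SLC7A11 had 132 and 134 CPM, against 90.5, 92.9 and 104 CPM, a difference of 0.47 ± 0.06 (SE, adjusted p = 6.42e-07). Unlike HMOX1 and GCLM, SLC7A11 was at 120 and 133 CPM at the low dose, and its high-dose level was not past the threshold against it (log2 difference 0.07, adjusted p = 0.704). ME1, the malic enzyme that yields NADPH, differed by 0.35 from vehicle and by 0.06 from the low dose (adjusted p = 0.639). FTH1, the ferritin heavy chain and among the most abundant transcripts, had 6977 and 6671 CPM, against 5824, 6034 and 5316 CPM, and rose by 0.25. The member that fell was OSGIN1, an oxidative stress-induced growth inhibitor, by 0.31 on the log2 scale, with a GC-corrected difference of -0.05.

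The RefSeq promoter of GCLM (GRCh38.p14, chr1:93909381-93909680, minus strand) is shown because GCLM passed against both vehicle and the low dose. Capitals mark 1 match to the antioxidant response element TGACNNNGC on either strand, which 13.3% of the promoters hold.
GCLM: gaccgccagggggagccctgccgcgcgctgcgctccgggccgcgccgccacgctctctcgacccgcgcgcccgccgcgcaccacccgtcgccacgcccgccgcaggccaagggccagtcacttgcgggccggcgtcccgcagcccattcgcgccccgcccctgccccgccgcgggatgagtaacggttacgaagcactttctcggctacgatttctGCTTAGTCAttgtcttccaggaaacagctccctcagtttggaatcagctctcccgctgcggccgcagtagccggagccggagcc

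Of 27 tested hypoxia and glycolysis genes 15 were higher and none lower at the high dose than in vehicle, with a median log2 difference of 0.20. GC-corrected offsets gave 17 higher and none lower. Over all genes 29.2% passed, and 10.9% when GC-corrected. Against the low dose 8 were higher and none lower, where 1.34% of all genes passed. Of these 8, PFKP lost the call without any 1 of the 4 libraries, and P4HA1 without high-dose replicate 3 or either low-dose library. LDHA lost it without replicate 3 of either dose, and ALDOA without high-dose replicate 2. BNIP3 and GAPDH lost it without high-dose replicate 2 or low-dose replicate 3. ALDOC (chr17:28573115-28577264, minus strand), an aldolase of glycolysis, had 23.7 and 23.5 CPM at the high dose, against 13.2, 14.1 and 14.4 CPM in vehicle. The groups were well apart, with a log2 difference of 0.77 ± 0.08 (SE, adjusted p = 2.05e-08). At the low dose it had 15.7 and 15.4 CPM, and the high dose exceeded that by 0.60 (adjusted p = 2.69e-05). The GC-corrected difference from vehicle was 0.91.

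LDHA, which turns pyruvate into lactate, had 2497 and 2594 CPM at the high dose, against 1742, 1827 and 1794 CPM in vehicle, a log2 difference of 0.51 ± 0.04 (SE, adjusted p = 3.14e-09). P4HA1, a collagen prolyl hydroxylase subunit, had 47.6 and 52.7 CPM, against 31.4, 30.9 and 34.3 CPM, a difference of 0.64 ± 0.06 (SE, adjusted p = 6.37e-09). Both were also higher at the low dose, by 0.26 and 0.37. BNIP3, a mitochondrial mitophagy receptor, differed by 0.40 from vehicle and by 0.05 at the low dose (adjusted p = 0.568). Of the other members, the kinase PDK1, which restrains pyruvate dehydrogenase, differed by 0.59, the hexokinase HK2 by 0.57, the bifunctional enzyme PFKFB4 by 0.68, and the HIF prolyl hydroxylase EGLN3 by 0.44. HK2 lost its call without high-dose replicate 2 or vehicle replicate 3. CA9, a carbonic anhydrase, and VEGFA, a vascular growth factor, passed with small differences of 0.20 and 0.15. CA9 lost the call without either high-dose library or vehicle replicate 1, and VEGFA without either high-dose library, vehicle replicate 1 or vehicle replicate 2. ENO1 and PKM, abundant glycolytic enzymes, had differences of -0.09 and 0.05 with adjusted p of 0.255 and 0.506.

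The RefSeq promoter of ALDOC (GRCh38.p14, chr17:28576846-28577145, minus strand) is shown because ALDOC had the largest difference of the named members of this list. Capitals mark 3 matches to the hypoxia element core ACGTG on either strand, of which a pair overlaps, and 21.4% of the promoters hold at least 1.
ALDOC: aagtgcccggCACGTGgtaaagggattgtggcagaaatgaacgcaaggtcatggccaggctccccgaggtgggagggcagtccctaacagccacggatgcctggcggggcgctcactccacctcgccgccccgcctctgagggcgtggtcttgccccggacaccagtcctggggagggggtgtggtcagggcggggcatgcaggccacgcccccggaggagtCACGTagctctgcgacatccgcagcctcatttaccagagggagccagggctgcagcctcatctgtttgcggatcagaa

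Other genes were higher at the high dose than in vehicle and at the low dose. AQP3 (chr9:33441154-33447633, minus strand), a channel for water and glycerol, had 93.8 and 92.1 CPM at the high dose, against 61.7, 64.7 and 56.6 CPM in vehicle, a log2 difference of 0.61 ± 0.05 (SE, adjusted p = 3.14e-09). At the low dose it had 62.4 and 64.2 CPM and at the medium dose 73.00 and 70.3 CPM, and the GC-corrected difference at the high dose was 0.76. GRHL3, a transcription factor of epithelial barrier formation, had 6.48 and 6.38 CPM, against 3.59, 3.14 and 3.71 CPM, a difference of 0.89 ± 0.12 (SE, adjusted p = 3.70e-06). C10orf90 had 14.00 and 13.8 CPM, against 9.06, 9.35 and 9.22 CPM, a difference of 0.59 ± 0.10 (SE, adjusted p = 4.56e-05). The difference of GRHL3 between the high and the low dose, 0.58, lost its call without any 1 of the 4 libraries, and that of C10orf90 without high-dose replicate 2 or low-dose replicate 3.

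Of 15 tested genes of fatty acid oxidation and PPAR signalling 12 were higher and none lower at the high dose, with a median log2 difference of 0.28. GC-corrected offsets left 9 higher and none lower. The share over all genes was 29.2%, and 10.9% when GC-corrected. PLIN2, which coats lipid droplets, had 70.5 and 73.5 CPM at the high dose, against 50.6, 54.4 and 51.02 CPM in vehicle, a log2 difference of 0.47 ± 0.05 (SE, adjusted p = 7.45e-08). Both high-dose libraries lay above all vehicle libraries, and the GC-corrected difference was 0.47. PDK4, another pyruvate dehydrogenase kinase, had 448 and 464 CPM, against 348, 340.3 and 348 CPM, a difference of 0.40 ± 0.04 (SE, adjusted p = 1.45e-07). The low dose gave 57.04 and 57.7 CPM for PLIN2 and 406 and 439 CPM for PDK4. ACAA2, a thiolase of beta-oxidation, and ANGPTL4, a secreted inhibitor of lipoprotein lipase, differed by 0.36 and 0.38.

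Among NF-kB and inflammatory genes 11 of 20 tested were lower and 1 higher at the high dose, with a median log2 difference of -0.29. GC-corrected offsets left 7 lower and none higher. Of all genes 29.2% passed, and 10.9% when GC-corrected. CXCL1 (chr4:73869393-73871242, plus strand), a neutrophil-attracting chemokine, had 11.9 and 12.8 CPM at the high dose, against 20.3, 19.3 and 20.5 CPM in vehicle. The vehicle libraries lay close together and all above the high-dose libraries, with a log2 difference of -0.69 ± 0.09 (SE, adjusted p = 2.00e-06). At the low dose CXCL1 had 21.8 and 20.9 CPM, and the log2 difference of the high from the low dose was -0.79 (adjusted p = 6.91e-06). CXCL5, a chemokine of the same cluster, had 33.9 and 34.2 CPM, against 45.6, 48.3 and 41.8 CPM, a difference of -0.41 ± 0.06 (SE, adjusted p = 3.70e-06), and was at 46.1 and 47.5 CPM at the low dose.

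RELB and NFKB2, partners in the alternative NF-kB pathway, fell at every dose. RELB had 5.17 and 5.12 CPM at the high dose, against 9.74, 9.28 and 9.46 CPM in vehicle, a log2 difference of -0.88 ± 0.12 (SE, adjusted p = 3.72e-06), and 6.004 and 4.199 CPM at the low dose. NFKB2 had 38.6 and 37.4 CPM, against 54.3, 54.6 and 51.9 CPM, a difference of -0.50. Their transcripts have a GC content of 65.4% and 62.4%, and the GC-corrected differences were -0.59 and -0.26. ICAM1, a leukocyte adhesion molecule, differed by -1.04 and lost its call without high-dose replicate 2. The member that was higher, the cytokine IL1B, differed by 1.24 at 0.527 and 0.498 CPM, against 0.239, 0.234 and 0.163 CPM, and lost its call without either high-dose library or vehicle replicate 3. CXCL8, another chemokine, differed by -0.55 without passing (adjusted p = 0.0596).

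The RefSeq promoters of CXCL1 (GRCh38.p14, chr4:73869143-73869442, plus strand) and CXCL5 (chr4:73998628-73998927, minus strand) are shown because both genes were lower at the high dose than in vehicle and at the low dose. Capitals mark matches to the kappa B site, the element NF-kB binds, on either strand, 2 in each promoter that overlap each other, and 25.6% of the promoters hold at least 1.
CXCL1: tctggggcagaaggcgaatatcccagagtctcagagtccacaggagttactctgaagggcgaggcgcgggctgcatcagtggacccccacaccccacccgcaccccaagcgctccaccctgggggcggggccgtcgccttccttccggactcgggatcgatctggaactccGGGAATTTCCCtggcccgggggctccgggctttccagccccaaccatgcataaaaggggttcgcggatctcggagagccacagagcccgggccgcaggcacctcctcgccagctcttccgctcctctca
CXCL5: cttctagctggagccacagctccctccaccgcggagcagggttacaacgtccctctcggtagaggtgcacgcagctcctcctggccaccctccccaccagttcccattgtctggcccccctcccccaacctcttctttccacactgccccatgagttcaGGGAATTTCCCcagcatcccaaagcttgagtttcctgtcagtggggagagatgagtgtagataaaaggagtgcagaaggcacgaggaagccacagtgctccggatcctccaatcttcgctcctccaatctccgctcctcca

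Other genes were lower at the high dose than in vehicle and at the low dose. SAA2, an acute-phase serum amyloid, had 4.77 and 4.78 CPM at the high dose, against 9.91, 10.7 and 9.62 CPM in vehicle, a log2 difference of -1.08 ± 0.11 (SE, adjusted p = 4.19e-08). Its exons are shared with the SAA2-SAA4 read-through gene. HP, the hemoglobin-binding protein haptoglobin, had 1.46 and 1.56 CPM, against 2.32, 3.405 and 3.67 CPM, a difference of -1.04 ± 0.22 (SE, adjusted p = 0.000757), while the low dose gave 3.98 and 4.35 CPM. Both high-dose libraries were below the vehicle and the low-dose libraries. HAPLN3, a hyaluronan-binding protein, and CSAD, a decarboxylase of taurine synthesis, differed by -0.84 and -0.78. PAQR6, a membrane progestin receptor, differed by -0.62, and the pseudogene GOLGA6L5P, which shares sequence with its family, by -0.74. The difference from the low dose lost its call for SAA2 without low-dose replicate 3, for HAPLN3 and CSAD without either high-dose library or low-dose replicate 2, for PAQR6 without high-dose replicate 2 or low-dose replicate 3, and for GOLGA6L5P without any 1 of the 4 libraries.

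Of 15 tested YAP targets 8 were lower and 1 higher at the high dose, with a median log2 difference of -0.19. GC-corrected offsets left 5 lower and 1 higher. The share over all genes was 29.2% on the counts as deposited and 10.9% when GC-corrected. ANKRD1, a nuclear ankyrin-repeat protein and common YAP readout, had 21.1 and 20.96 CPM at the high dose, against 30.6, 32.8 and 33.6 CPM in vehicle, a log2 difference of -0.62 ± 0.07 (SE, adjusted p = 5.00e-08). The low dose gave 31.7 and 33.8 CPM, within the range of vehicle but for 1 library, and the high dose differed from the low dose by -0.64 (adjusted p = 5.80e-07). The matricellular proteins CCN1 and CCN2 had log2 differences from vehicle of -0.60 and -0.49. AMOTL2, an angiomotin that binds YAP, differed by -0.41, and DKK1, a secreted Wnt antagonist of the Wnt list, by -0.34. The member that rose was NT5E, the ecto-nucleotidase CD73, by 0.33.

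**Figure D4:**
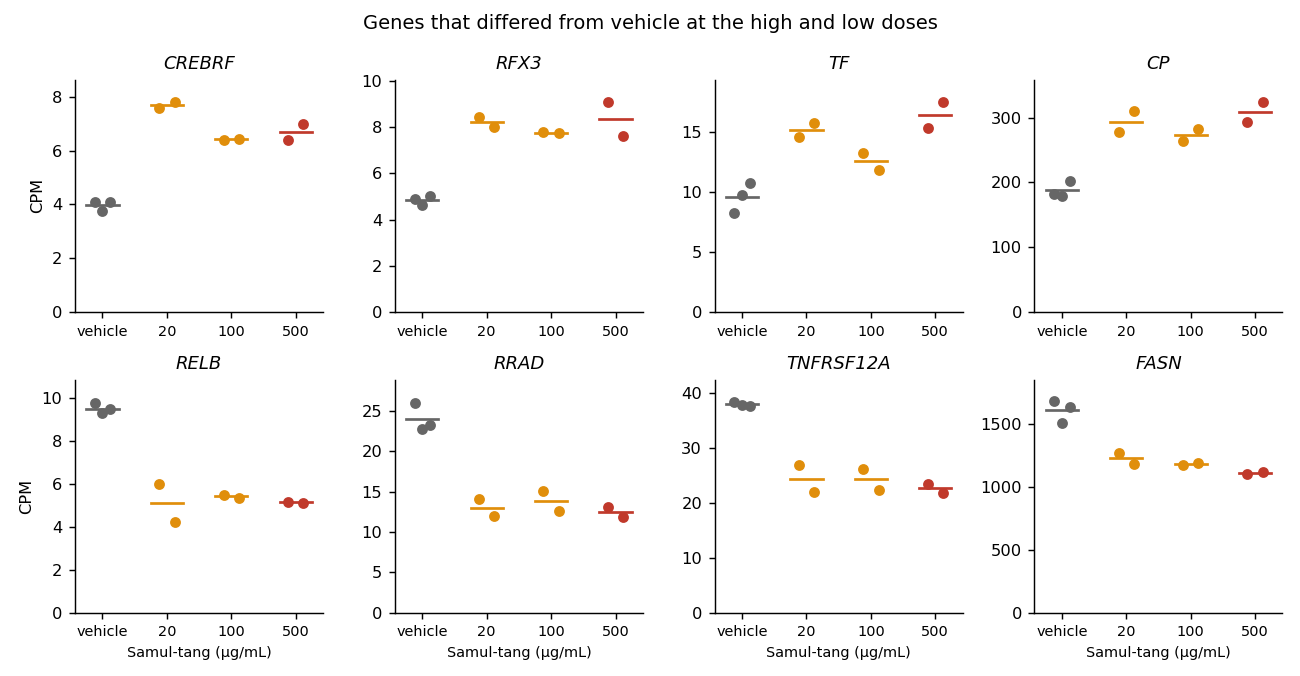
CPM (vertical axes, each from 0) of 8 genes in vehicle and at 20, 100 and 500 µg/mL of Samul-tang, with 1 point per library and a line at the group mean. CREBRF, RFX3, TF and CP are higher and RELB, RRAD, TNFRSF12A and FASN lower at 20 and at 500 µg/mL than in vehicle.

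The largest differences from vehicle included genes that had moved as far at the low dose. RFX3, a transcription factor of cilium genes, had 9.08 and 7.61 CPM at the high dose, against 4.89, 4.61 and 5.02 CPM in vehicle, and 8.45 and 8.01 CPM at the low dose. Its log2 difference was 0.79 ± 0.11 (SE, adjusted p = 2.25e-06) and 0.60 when GC-corrected. CP, the ferroxidase ceruloplasmin, had 292 and 324 CPM, against 182, 178 and 202 CPM, and TF, the iron carrier transferrin, had 15.3 and 17.5 CPM, against 8.27, 9.75 and 10.8 CPM. Their differences were 0.72 ± 0.08 (SE, adjusted p = 2.15e-06) and 0.78 ± 0.12 (SE, adjusted p = 4.56e-05). TF shares exon positions with SRPRB. H4C8, a histone H4 gene, CREBRF, a regulator of the factor CREB3, and LINC00886, a long non-coding RNA, differed by 0.73, 0.76 and 0.82. PLCH1, a phospholipase C, and the read-through gene FAM47E-STBD1 differed by 0.76 and 0.77. The ribosomal protein pseudogene RPL7AP6 differed by 0.84 and lost its call without either high-dose library, vehicle replicate 1 or vehicle replicate 2, and when GC-corrected (adjusted p = 0.0671).

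Among lower genes, RRAD, a small GTPase that inhibits calcium channels, had 13.04 and 11.8 CPM at the high dose, against 25.9, 22.8 and 23.2 CPM in vehicle, and 14.03 and 11.99 CPM at the low dose. Its log2 difference was -0.95 ± 0.10 (SE, adjusted p = 2.36e-07). TNFRSF12A, the receptor of the cytokine TWEAK, had 23.4 and 21.8 CPM, against 38.3, 37.8 and 37.6 CPM, a difference of -0.74 ± 0.09 (SE, adjusted p = 1.77e-06). The GC content of these transcripts is 65.6% and 64.2%, and the GC-corrected differences were -0.66 and -0.47, both still past the threshold. HES4, a Notch-related repressor with a transcript GC content of 73.9%, had 3.35 and 4.05 CPM, against 8.54, 8.14 and 6.199 CPM, a difference of -1.05 that lost its call without high-dose replicate 2. When GC-corrected it was -0.61 (adjusted p = 0.059). The keratin KRT16 and the pseudogene UBE2SP1 differed by -0.80 and -0.77. MEX3D, an RNA-binding protein, differed by -0.84 and lost its call without high-dose replicate 2.

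The lower non-coding genes varied more between libraries. BCYRN1, a short RNA related to Alu repeats whose copies may share reads, had 70.7 and 63.1 CPM at the high dose, against 181, 133 and 80.5 CPM in vehicle. Its vehicle libraries spanned more than the gap between the groups, and its log2 difference of -0.98 lost the call without either high-dose library or vehicle replicate 1. SNHG9, which hosts SNORA78, differed by -0.93 and lost its call without high-dose replicate 3 or vehicle replicate 1. The pseudogene PKD1P1, nearly identical to PKD1 in sequence, differed by -0.85 and lost it without high-dose replicate 2, vehicle replicate 1 or vehicle replicate 3. SNHG9 and PKD1P1 did not pass when GC-corrected (adjusted p = 0.144 and 0.25). H19, an imprinted long RNA, had 42.7 and 29.8 CPM, against 69.3, 61.96 and 53.3 CPM, a difference of -0.77 ± 0.12 (SE, adjusted p = 8.38e-05).

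Sterol and lipid synthesis genes were mostly lower or did not pass. Of 24 tested cholesterol genes 8 were lower and 2 higher, with the same counts when GC-corrected. Over all genes 29.2% passed, and 10.9% when GC-corrected. On the counts as deposited 42.2% and 49.0% passed in the 2 upper of 4 groups by expression. INSIG1, which retains SREBP in the endoplasmic reticulum, had 53.2 and 48.8 CPM at the high dose, against 76.5, 74.01 and 72.9 CPM in vehicle, a log2 difference of -0.55 ± 0.05 (SE, adjusted p = 3.14e-09). Both high-dose libraries lay below all vehicle libraries. LSS, lanosterol synthase, had 66.4 and 67.6 CPM, against 85.4, 86.1 and 89.2 CPM, a difference of -0.38 ± 0.04 (SE, adjusted p = 3.18e-07). The low dose gave log2 differences from the same vehicle libraries of -0.44 for INSIG1 and -0.21 for LSS. The RefSeq promoters of INSIG1 and LSS held no match to the sterol element TCACNCCAC on either strand, which 1.13% of the promoters hold. SQLE, squalene epoxidase, had a difference of 0.05 (adjusted p = 0.454). Of 12 fatty acid synthesis genes 5 were lower and 2 higher, against 2 and 1 when GC-corrected. FASN, fatty acid synthase, had 1101 and 1116 CPM, against 1678, 1506 and 1634 CPM, and its difference of -0.54 became -0.25 with the GC correction.

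The largest differences in CPM were in mitochondrial, keratin and other abundant genes. MT-CO1, a subunit of cytochrome oxidase, had 44140 and 46410 CPM at the high dose, against 38410, 30160 and 30250 CPM in vehicle, and its difference of 0.46 lost the call without either high-dose library, vehicle replicate 2 or vehicle replicate 3. The same libraries decided the call of the ribosomal RNA MT-RNR2, which differed by 0.26. MT-ND3, a complex I subunit, and EEF1A1, an elongation factor, differed by 0.49 and 0.21, and both lost the call without high-dose replicate 3. Of 13 mitochondrially encoded genes 3 were higher, where 29.2% of all genes passed, so this count is not a result about the members. None was higher when GC-corrected, where 10.9% of all genes passed and EEF1A1 did not pass either. The share of mitochondrial counts was 19.6% in both high-dose libraries, against 15.2% to 18.6% in vehicle, and its part in other differences was not tested. The keratins KRT81, KRT8 and KRT7 and beta-actin ACTB differed by -0.50, -0.27, -0.32 and -0.23. With GC-corrected offsets KRT81 still passed, at -0.27, whereas KRT8 (-0.14), KRT7 (-0.08) and ACTB (-0.11) did not. KRT7 also lost its call when any 1 of the 5 libraries was left out.

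Counts in lists of proliferation and protein homeostasis against vehicle depended on the GC correction. Over all genes 29.2% passed on the counts as deposited and 10.9% when GC-corrected. With genes split by expression into 4 groups of equal size, the share on the counts as deposited was 49.0% in the highest group and 5.15% in the lowest. Of 30 tested mitosis genes 14 were higher and 3 lower at the high dose than in vehicle, against 2 and 1 when GC-corrected. Against the low dose 5 were higher and none lower at the high dose, where 1.34% of all genes passed. When GC-corrected 13 were higher and none lower, where 1.96% passed. Of the 5, ANLN, PLK1, KIF20A and PRC1 lost the call without any 1 of the 4 libraries. CDC20 lost it without either high-dose library or low-dose replicate 3. The GC-corrected calls were not tried with a library left out. The low dose against vehicle had 4 of the mitosis genes higher and 7 lower, and none higher and 11 lower when GC-corrected. The spindle checkpoint kinase TTK, with 27.4 and 27.4 CPM at the high dose, against 19.4, 20.4 and 19.7 CPM in vehicle, passed in both fits (log2 differences 0.46 and 0.31), whereas topoisomerase TOP2A passed in the first alone (0.32 and 0.14). Of 32 DNA replication genes 4 were higher and 9 lower, against 0 and 3. Of 16 ER chaperones 9 were higher and 2 lower, against 2 and 0, and of 22 proteasome subunits 5 were higher, against none. Of 30 cytosolic ribosomal proteins 6 were higher and 2 lower, against 4 and 0, and of 15 heat shock genes 4 were higher and 1 lower, against 1 and 0. On the counts as deposited the ribosomal protein and heat shock lists were near the share over all genes, so their counts are not a result about their members. RPL5, a ribosomal protein, and PSMD12, a proteasome subunit, changed sign, with 0.19 and 0.14 on the counts as deposited and -0.005 and -0.045 when GC-corrected. PSMD12 had also lost its call without either high-dose library or vehicle replicate 1.

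Signalling lists gave mixed counts, beside 29.2% of all genes on the counts as deposited and 10.9% when GC-corrected. On the counts as deposited the interferon, TGF-beta and BMP, and ATF4 lists were near the share over all genes. Their counts there are not a result about their members. Of 19 interferon-stimulated genes 5 were higher and 1 lower, against 3 and 1 when GC-corrected. IFIT1, an RNA-binding antiviral protein, had 36.5 and 37.4 CPM at the high dose, against 21.6, 25.00 and 23.6 CPM in vehicle, a log2 difference of 0.66 ± 0.07 (SE, adjusted p = 1.82e-08). Of 18 TGF-beta and BMP response genes 5 were lower and 1 higher, against 6 and 2. ID3, an inhibitor of basic helix-loop-helix factors, had 104 and 97.8 CPM, against 157, 164 and 150.1 CPM, a difference of -0.64 ± 0.06 (SE, adjusted p = 4.01e-09), and SMAD6, an inhibitory SMAD, differed by -0.59. Of 20 immediate early genes 9 were lower and none higher, against 3 lower and 1 higher. NR4A1, an orphan nuclear receptor, had 11.9 and 10.8 CPM, against 19.8, 17.8 and 17.2 CPM, a difference of -0.69 ± 0.08 (SE, adjusted p = 4.33e-07). Of 25 genes of the ATF4 response 5 were higher and 3 lower, against 6 and 1, with asparagine synthetase ASNS at 0.47.

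Of 19 hepatocyte-type secreted proteins 6 were higher and 2 lower, against 3 and 2 when GC-corrected. Over all genes 29.2% passed on the counts as deposited and 10.9% when GC-corrected. The low dose against vehicle had 11 of the hepatocyte-type list higher and none lower, and 8 and 0 when GC-corrected. In that comparison 30.7% of all genes passed on the counts as deposited. The high dose against the low dose had 5 lower and none higher, and 6 and 0 when GC-corrected. Between these doses 1.34% of all genes passed, and 1.96% when GC-corrected. Of 29 drug-metabolising enzymes and transporters 7 were higher and 3 lower at the high dose than in vehicle, against 8 and 0. On the counts as deposited this was near the share over all genes and is not a result about the members. CYP3A5, a family 3 cytochrome P450, had 23.9 and 23.98 CPM at the high dose, against 16.9, 15.2 and 17.5 CPM in vehicle, a difference of 0.54 ± 0.09 (SE, adjusted p = 2.76e-05). The glutathione transferase MGST1 differed by 0.42, and UGT1A1, whose exons are shared across the UGT1A family, by 0.43. Of 21 p53 targets 6 were higher and 5 lower, against 4 and 0, with the cyclin CCNG1 at 0.41 and SESN1, a sestrin, at 0.51.

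The counts of the remaining lists stand beside the 29.2% of all genes that passed on the counts as deposited and the 10.9% that passed when GC-corrected. Of 22 glucocorticoid receptor and FOXO targets 6 were higher and 3 lower, against 4 and 1 when GC-corrected, with the EGFR inhibitor ERRFI1 at 0.26. Of 17 circadian clock genes 4 were higher and 4 lower, against 2 and 4, with the output factor DBP at -0.51. Of 21 CLK kinases and SR splicing factors 5 were higher and 3 lower, against 2 and 8, with the kinase CLK1 at 0.37. Of 21 abundant long non-coding RNAs 4 were higher and 5 lower, against 1 and 5. Of 26 nuclear-encoded respiratory chain subunits 4 were higher and 2 lower, against 3 and 2.

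Of 21 lysosome and autophagy genes 4 were higher and 4 lower, against 4 and 0 when GC-corrected, and the protease cathepsin L, CTSL, had 143 and 156 CPM at the high dose, against 117, 119 and 117 CPM in vehicle, a log2 difference of 0.34 ± 0.04 (SE, adjusted p = 1.24e-06). Of 24 epithelial and mesenchymal genes 3 were higher and 5 lower, and none passed when GC-corrected. Of 12 Notch pathway genes 3 were lower, against 1 higher, and of 8 Wnt targets 4 were lower, against 1 lower. Of 10 histone genes 3 were higher, against 1, and of 11 mucin and gastric-type genes 2 were higher and 1 lower in both fits. Of 7 metallothionein and zinc genes 1 was higher and 2 lower, against 1 and 1, and of 9 estrogen and progesterone response genes 2 were higher and 1 lower, against 1 and 0.

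**Figure D5:**
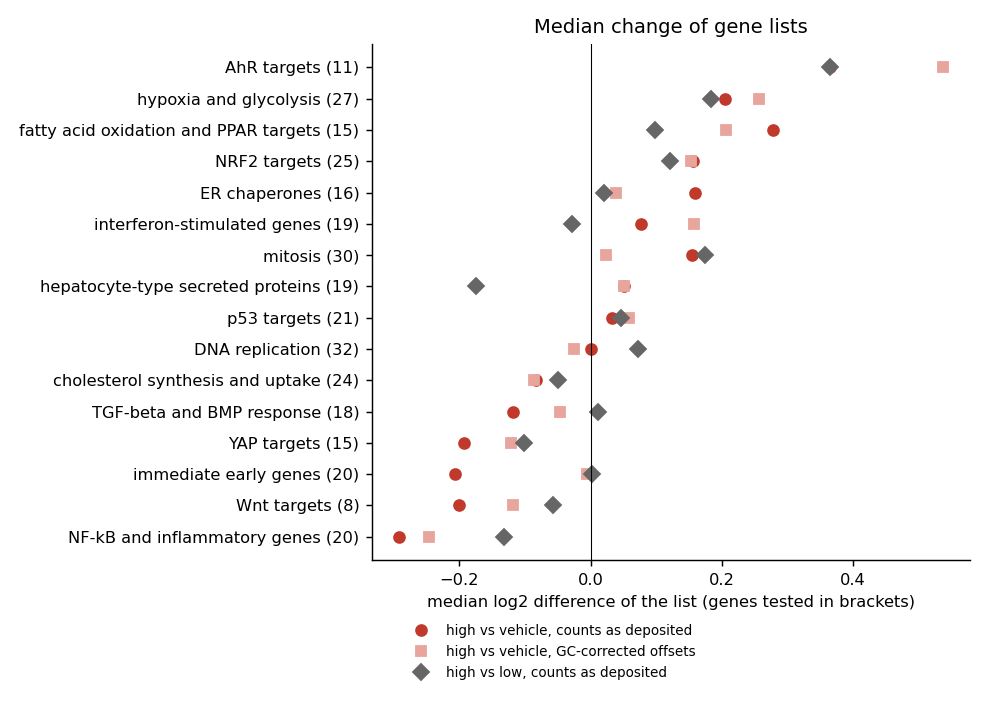
Median log2 difference (horizontal axis) of the genes of 16 lists, with the number tested in brackets. Circles are the high dose against vehicle on the counts as deposited, squares the same with GC-corrected offsets, and diamonds the high dose against the low dose. The AhR targets have the highest medians, 0.36 to 0.54, and the NF-kB list the lowest median against vehicle, -0.29.

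At the same dose of 500 µg/mL, Samul-tang differed from Palmul-tang, which combines its herbs with those of Sagunja-tang, in 34 genes (0.192%), 24 higher and 10 lower with Samul-tang, and 1648 genes had an unadjusted p under 0.05. The number past the threshold was 8 or 9 without Samul-tang replicate 2 or 3, and 21 or 18 without Palmul-tang replicate 1 or 3. The library codes of Palmul-tang and Sibjeondaebo-tang start with another prefix than those of Samul-tang. Any handling that followed the prefix cannot be told apart from the difference between formulas. STC1, a secreted calcium-regulating hormone, had 36.3 and 38.3 CPM with Samul-tang, against 23.3, 24.5 and 23.6 CPM with Palmul-tang, a log2 difference of 0.65 (adjusted p = 4.09e-05). Against vehicle, STC1 differed by 0.30 and lost its call without high-dose replicate 3 and when GC-corrected (adjusted p = 0.103). ID2, chosen after its values were seen, had 19.8 and 19.6 CPM, against 13.2, 14.8 and 12.98 CPM, a difference of 0.53 (adjusted p = 0.000449). ALDOC had 19.6, 19.6 and 16.9 CPM and TF 10.3, 10.5 and 11.7 CPM with Palmul-tang, and their differences of 0.34 and 0.60 passed. ALDOC lost this call without either Samul-tang library or Palmul-tang replicate 3, and TF without any 1 of the 5 libraries. CYP1A1 was lower with Samul-tang than with Palmul-tang, which had 4.53, 3.58 and 3.104 CPM, with a log2 difference of -1.06 (adjusted p = 0.0226), a call lost without either Samul-tang library or Palmul-tang replicate 1.

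Samul-tang differed from Sibjeondaebo-tang, the formula with the most herbs, in 3775 genes at 500 µg/mL (21.3%), 2091 higher and 1684 lower with Samul-tang. At least a 2-fold difference was seen for 280 higher and 14 lower genes. ALDOC had 19.2, 17.5 and 21.7 CPM with Sibjeondaebo-tang and was higher with Samul-tang by 0.27 (adjusted p = 0.00703), and BHLHE40, a clock-related repressor, was higher by 0.15 (adjusted p = 0.0431). EHBP1L1, an endosomal adaptor, was lower with Samul-tang, with a log2 difference of -0.27 (adjusted p = 0.00365), and against vehicle it differed by -0.43, or -0.16 when GC-corrected (adjusted p = 0.0752). Of 25 tested NRF2 targets 11 were lower and 2 higher with Samul-tang than with Sibjeondaebo-tang. Of 11 AhR targets 5 were lower and none higher. The median log2 differences of these lists were -0.12 and -0.14, against 0.01 over all genes tested. HMOX1 had 80.4, 89.8 and 83.1 CPM with Sibjeondaebo-tang, and its log2 difference of -0.11 did not pass (adjusted p = 0.176). Without Samul-tang replicate 3 the count of genes was 1495.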

How the data were processed

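Stranded RNA libraries of A549 cells were sequenced as 100 bp pairs, per the labels' protocols. Per the submitters' processing notes the authors used FastQC 0.11.9, Trim Galore 0.6.5, STAR 2.7.3a and RSEM 1.3.3. The deposited values are the authors' expected counts per gene (60675 genes), which divide shared reads among genes. Aligner settings, annotation release and strand setting are not given in the sources used here. A further 240 columns of other samples were not used. Counts were rounded, filtered by filterByExpr (17701 genes kept), scaled by TMM (factors 0.923 to 1.051) and fitted with edgeR 4.0.16 in R 4.3.3 by glmQLFit (robust) with 13 groups. That left 17 residual degrees of freedom and a common biological coefficient of variation of 0.0496. Benjamini-Hochberg adjustment covered every gene tested, with a threshold of 0.05. Each SE is the size of the log2 change over the root of its F statistic, and CPM use TMM-scaled totals.

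Genes were named by rule. Given a mean log2 CPM of at least 2 and no overlap between groups, it took the 12 largest changes each way, the 6 that also passed against the low dose and the 4 that passed at the low dose and differed by under 0.1 log2 between doses. It also took the 4 that differed from both other formulas and the 5 with the largest CPM difference. Up to 4 members per list were taken by adjusted p. The conditions on level and overlap, which the rule as written set for these too, were not applied to them, which lets in low genes such as CYP1A1 and HP. The members and the 39 lists were chosen with earlier results of these data known. Other list members are named with their values only, and ID2 after its values were seen. Some genes that the rule names are not reported here.

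Alternatives were DESeq2 1.42.0, RLE size factors, no filter, a replicate block, a fit to only the groups compared, a fit that omits Sibjeondaebo-tang high and leaving out each library. GC-corrected offsets were added after seeing the data. They are a lowess curve (span 0.3) per library of log2 counts on the GC content of the longest GENCODE 29 transcript, known for 17570 tested genes. On simulated data for the high dose against vehicle with a GC trend and 200 changed genes, 3663 unchanged genes were called without these offsets and 14 with them. These were among 17701 and 17570 genes, and 152 and 143 changed genes were recovered. The trend put in followed the same GC values that the offsets use, so its removal was set in advance. Whether the offsets suit the real libraries was not tested. Promoters came from RefSeq (GRCh38.p14), where 15 of 23 named genes looked up were matched. Only promoters that hold the motif are printed. The motif was absent from those of INSIG1 and LSS (sterol element) and SLC39A10 (metal response element TGCNCNC). Gene positions are from GENCODE 29 on GRCh38.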

Additional observations from a re-analysis of the deposited data

Results flagged for a closer look

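The change against vehicle differed between the high and the low dose of Samul-tang for 238 genes, by a direct test of the doses in edgeR. It differed between Samul-tang and Palmul-tang at 500 µg/mL for 34 genes, and between Samul-tang and Sibjeondaebo-tang at 500 µg/mL for 3775 genes, by the same kind of test. In both of these comparisons between formulas the prefix of the library codes differs too. The 2 or 3 libraries of a group were too few to look for a library far from the others by a gap test.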

How the results depend on the processing

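With GC-corrected offsets the high dose gave 1907 genes against vehicle (1004 higher, 903 lower) and the low dose 1825, and RPL5 and PSMD12 changed sign, to -0.005 and -0.045. Leaving out each library in turn gave 2786 to 5021 genes for the high dose (1568 to 2617 higher, 1218 to 2404 lower) and 2419 to 5462 for the low dose. The lowest counts were without replicate 3 of the dose in question. High against low dose gave 464 genes with no filter, 373 with the replicate block, 429 in a fit to only the groups compared and 48 to 149 with a library left out. Against Palmul-tang the counts were 130 with no filter, 64 with the block, 17 in the fit to only the groups compared, 69 with DESeq2 and 8 to 38 with a library left out. Against Sibjeondaebo-tang they were 1495 to 3680 with a library left out. RLE size factors, no filter, the block, DESeq2 and the fit to only the groups compared gave 5138, 4827, 5226, 4598 and 4320 genes for the high dose against vehicle. Libraries of the same replicate number had correlations of 0.01 and -0.01. With 2 high-dose libraries the deviations mirror each other, so this check is weak, and the numbers were not used as pairs because the labels do not say that they mark shared material. Of the 158 named genes, 91 passed against vehicle under every setting and 67 lost the call in at least 1. With GC-corrected offsets 98 of the 158 kept the call, 58 lost it and 2 changed sign. What underlies the lost calls was not tested. In data simulated without a GC trend for the high dose against vehicle (17701 genes), 63.6% of genes raised and 57.6% of genes lowered by 0.5 log2 were recovered, 72.7% and 64.7% at 1, and 90.9% and 82.4% at 2, and a level under 1 CPM leaves few counts. Vehicle libraries stood apart from all extract libraries in GC trend, so small differences from vehicle cannot be told apart from that trend.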
